A study of Mus musculus with 6 samples.

Results

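The genes described here are 10 genes of the endoplasmic reticulum (ER) stress response, taken by name from a table of 56884 genes, and all 10 passed the filter on low counts. They are 5 chaperones of the ER (Hspa5, Hsp90b1, Calr, Canx and Pdia4) and 5 regulators of the stress response (Xbp1, Ddit3, Atf4, Atf6 and Ern1). The 10 genes were compared between 3 ectopic lesions from Dnmt3a knockout (KO) donor tissue and 3 from wild-type (WT) donor tissue in a mouse model of endometriosis, with each lesion sequenced as 1 mRNA library. The WT donors were Dnmt3a f/f females and the KO donors were Dnmt3a f/f:PR Cre/+ females, all 8 weeks old and injected with estradiol daily before their uterine tissue was taken. Cre under the progesterone receptor gene deletes Dnmt3a in cells that express this receptor, and the recipients were wild-type C57BL/6J females that carried an estradiol pellet, so host cells in every lesion kept the gene. The labels give a time of 4 weeks and transfer by injection into the peritoneal cavity, whereas the methods describe suturing a fragment to the mesentery and collection on day 21.

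Secreted and membrane proteins fold in the ER with the help of chaperones, and an excess of unfolded protein there triggers the unfolded protein response. Its 3 sensors are IRE1 (encoded by Ern1), which splices Xbp1 mRNA, PERK (Eif2ak3), which raises translation of ATF4 and thereby transcription of Ddit3, and ATF6, which is cut in the Golgi to release a transcription factor. Spliced XBP1 and cleaved ATF6 induce chaperones, degradation factors and the translocation machinery, while ATF4 and CHOP (encoded by Ddit3) induce genes of amino acid supply and cell death. Secretory epithelia, such as the glands of the endometrium, hold much ER. Counts per gene do not separate spliced from unspliced Xbp1, and they do not report the translation of Atf4 or the cleavage of ATF6.

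The promoter sequences are shown because most of the chaperone promoters share an element. The ER stress response element (ERSE), which ATF6 and XBP1 are known to bind, was searched on both strands as CCAAT and CCACG with 9 bases between them, in windows from 250 bases before to 50 bases after each RefSeq transcription start. It was found in 39 of 32851 windows (0.119%), and in those of 4 of the 5 chaperones. No match was found in the window of Pdia4 or in the windows of Xbp1, Ddit3, Atf4 and Ern1, and Atf6 had no window in the table. The 250 bases before the start are printed 5′ to 3′ on the gene's strand, from RefSeq on GRCm38.p6, with the ERSE in capitals. Pdia4 is printed as the chaperone without a match.
Hspa5, chr2:34771840-34772089, plus strand: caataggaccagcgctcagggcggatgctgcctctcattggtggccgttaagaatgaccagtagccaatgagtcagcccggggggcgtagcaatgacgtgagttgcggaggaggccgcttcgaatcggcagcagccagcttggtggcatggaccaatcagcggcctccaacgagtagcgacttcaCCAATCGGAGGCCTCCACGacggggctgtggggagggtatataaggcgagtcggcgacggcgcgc
Hsp90b1, chr10:86705445-86705694, minus strand: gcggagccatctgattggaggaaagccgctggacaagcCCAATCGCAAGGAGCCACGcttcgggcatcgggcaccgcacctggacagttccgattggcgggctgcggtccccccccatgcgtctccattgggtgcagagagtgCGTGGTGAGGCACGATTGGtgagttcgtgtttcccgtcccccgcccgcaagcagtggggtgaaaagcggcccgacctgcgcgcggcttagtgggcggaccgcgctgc
Calr, chr8:84846932-84847181, minus strand: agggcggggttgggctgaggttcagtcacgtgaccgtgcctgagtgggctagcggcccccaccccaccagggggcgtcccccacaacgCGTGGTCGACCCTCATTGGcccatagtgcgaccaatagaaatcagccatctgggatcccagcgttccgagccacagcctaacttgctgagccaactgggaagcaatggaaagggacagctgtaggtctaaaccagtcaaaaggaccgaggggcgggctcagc
Canx, chr11:50325674-50325923, minus strand: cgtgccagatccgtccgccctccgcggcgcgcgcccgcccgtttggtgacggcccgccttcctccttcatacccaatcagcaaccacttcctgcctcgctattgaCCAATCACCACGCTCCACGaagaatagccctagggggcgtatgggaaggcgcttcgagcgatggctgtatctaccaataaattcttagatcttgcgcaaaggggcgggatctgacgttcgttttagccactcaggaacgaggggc
Pdia4, chr6:47813513-47813762, minus strand: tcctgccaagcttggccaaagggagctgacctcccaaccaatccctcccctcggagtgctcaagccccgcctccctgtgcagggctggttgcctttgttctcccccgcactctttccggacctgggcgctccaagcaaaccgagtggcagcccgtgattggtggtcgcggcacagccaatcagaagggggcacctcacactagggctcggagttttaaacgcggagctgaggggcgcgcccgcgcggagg

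In Hspa5 the element lay 65 to 47 bases before the start, on the strand of the gene. Hsp90b1 held a pair, 212 to 194 bases before the start on the gene's strand and 107 to 89 bases before it on the opposite strand. In Calr it lay 162 to 144 bases before the start on the opposite strand, and in Canx 145 to 127 bases before it on the gene's strand. The related ERSE-II (ATTGG and CCACG with 1 base between them), TGACGTGG, and TGATGNAA, which ATF4 is known to bind, were found in no window of the 9 members that had one. Those 3 motifs were held by 0.0365%, 0.676% and 3.97% of all windows. A match describes letters in the sequence and is not a measured binding site.

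The libraries held 45370342 to 57239184 counts each, and levels below are CPM, counts scaled to a common library size with TMM factors. Dnmt3a itself had 52.7, 43.9 and 51.7 CPM in WT replicates 1 to 3 and 30.3, 33.5 and 36.2 CPM in KO replicates 1 to 3. Every KO lesion was below every WT lesion, with a log2 fold change of -0.57 (SE 0.14, adjusted p = 0.321 by edgeR's quasi-likelihood test, adjusted by Benjamini-Hochberg over 18177 genes). Its unadjusted p was under 0.05 in 13 of 13 alternatives, and its adjusted p was 0.0447 by DESeq2. The counts cover the whole gene, including exons outside the deleted part. Across all tested genes, 1 passed an adjusted p of 0.05 (0.0055%), 1190 had an unadjusted p under 0.05 with a higher level in KO lesions (6.55%), and 1484 with a lower level (8.16%). Upper quartile scaling gave 1945 and 1179 in place of 1190 and 1484, and gave all genes a median log2 fold change of 0.109 in place of 0.01. The libraries also differed in cell types. WT replicates 1 and 3 held skeletal muscle transcripts, WT replicate 2 neutrophil, B cell and plasma cell transcripts, WT replicate 3 pancreatic acinar transcripts, and KO replicate 3 adipocyte transcripts, with values given beside the lists below. These are whole-tissue libraries, in which fewer cells of a type and less RNA per cell cannot be told apart.

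No member passed the adjusted threshold. The 5 chaperones all had positive log2 fold changes, from 0.30 to 0.74 with a median of 0.67, whereas the 5 regulators spread from -1.12 to 0.38 with a median of -0.02. At an unadjusted p under 0.05, 2 of the 10 members (Calr and Pdia4) were higher in KO lesions, beside 6.55% of all tested genes, and 1 (Ddit3) was lower, beside 8.16%. In 2 members every KO lesion was above every WT lesion, beside 10.7% of all genes. In 2 members (Ddit3 and Atf4) every WT lesion was above every KO lesion, beside 8.74%. Calr and Pdia4 were not under 0.05 without WT replicate 1, KO replicate 1 or KO replicate 2, nor Calr without WT replicate 2, while their log2 fold changes stayed at 0.58 to 0.68 for Calr and 0.61 to 0.66 for Pdia4. Without KO replicate 3, 6 members were higher and 0 lower at an unadjusted p, beside 11.5% and 12.4% of all genes. DESeq2 gave 3 higher and 1 lower, beside 4.98% and 7.74%, and limma voom, which called 0.066% of genes at an adjusted p, gave 6 higher and 0 lower, beside 14.3% and 15.9%. None of the 13 alternative analyses brought a member under an adjusted p of 0.05, and the smallest adjusted p of any member was 0.0744, for Pdia4.

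**Figure D1:**
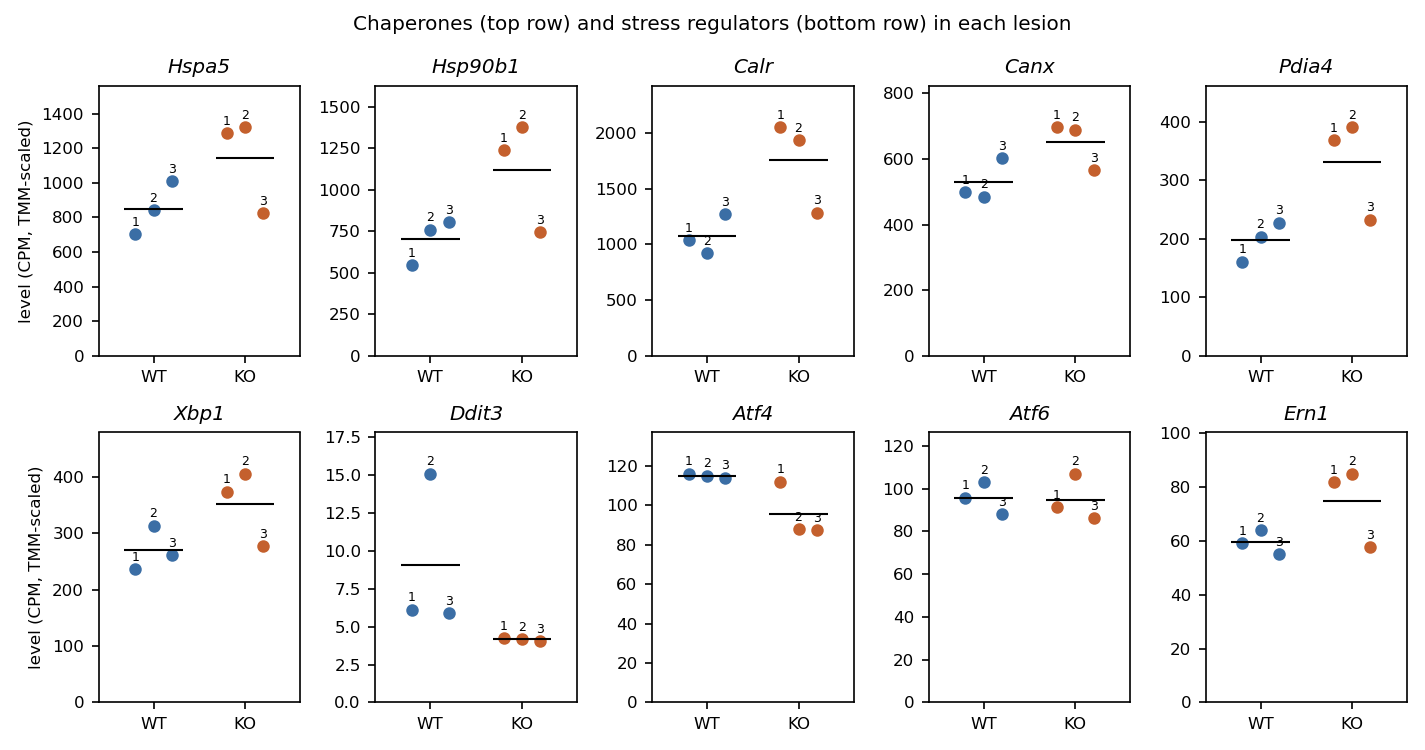
Level of each of the 10 members in each lesion (y axes, CPM from 0, each gene on its own scale), with WT lesions in blue, KO lesions in orange, the replicate number above each point and the group mean as a line (n = 3 lesions per group). KO replicates 1 and 2 lay above every WT lesion for all 5 chaperones, Xbp1 and Ern1, KO replicate 3 lay among or near the WT lesions for these genes, and WT replicate 2 set the high WT value of Ddit3.

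Calr encodes calreticulin, the soluble lectin chaperone that holds glycoproteins during folding (chr8:84841850-84846934, minus strand, positions from GENCODE M21 on GRCm38). Its levels were 1037, 923 and 1269 CPM in the WT lesions and 2050, 1936 and 1284 CPM in the KO lesions. The groups did not overlap, but KO replicate 3 exceeded WT replicate 3 by a small margin compared with the other KO lesions. The WT lesions averaged 1077 ± 176 CPM (SD, n = 3) and the KO lesions 1757 ± 414 CPM (SD, n = 3), with a log2 fold change of 0.71 (SE 0.26), an unadjusted p of 0.0351 and an adjusted p of 0.332 from edgeR. The exact two-sided permutation test over lesions gave p = 0.1, the smallest that 3 against 3 allows. Leaving out 1 lesion at a time gave log2 fold changes from 0.58, with KO replicate 1 removed, to 0.89, with KO replicate 3 removed.

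Pdia4 encodes a protein disulfide isomerase of the ER lumen (chr6:47796141-47813430, minus strand) and had the largest fitted difference of the chaperones. Its levels were 161, 204 and 228 CPM in the WT lesions and 369, 391 and 233 CPM in the KO lesions. KO replicates 1 and 2 were well above the WT lesions, and KO replicate 3 was close to WT replicate 3. WT lesions averaged 198 ± 33.9 CPM (SD, n = 3), and KO lesions 331 ± 85.3 CPM (SD, n = 3). The fitted log2 fold change of 0.74 (SE 0.25, unadjusted p = 0.0254, adjusted p = 0.328 by edgeR) ranged from 0.61 when KO replicate 2 was left out to 0.94 when KO replicate 3 was.

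Hsp90b1 encodes GRP94, the HSP90 of the ER (chr10:86690209-86705509, minus strand). It had 546, 760 and 804 CPM in the WT lesions and 1239, 1377 and 743 CPM in the KO lesions. The groups overlapped because KO replicate 3 lay below WT replicates 2 and 3. Its log2 fold change was 0.67 (SE 0.30, adjusted p = 0.355 by edgeR), and without KO replicate 3 it was 0.90. Hspa5 encodes BiP, the ER HSP70 that also holds the stress sensors inactive (chr2:34771970-34777547, plus strand). It had 702, 842 and 1011 CPM in the WT lesions and 1288, 1322 and 825 CPM in the KO lesions. KO replicate 3 was again inside the WT range, and the log2 fold change was 0.43 (SE 0.26, adjusted p = 0.447). Canx encodes calnexin, the membrane-bound partner of calreticulin (chr11:50293961-50325673, minus strand). Its 499, 485 and 603 CPM in the WT lesions and 697, 689 and 565 CPM in the KO lesions gave the smallest difference of the chaperones, at 0.30 (SE 0.18, adjusted p = 0.44). KO replicate 3 lay below WT replicate 3.

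Among the regulators, the counts did not move in one direction. Xbp1, the transcription factor activated by IRE1 (chr11:5520659-5525893, plus strand), had 237, 314 and 261 CPM in the WT lesions and 374, 406 and 277 CPM in the KO lesions. Its order of lesions resembled that of the chaperones, with KO replicates 1 and 2 above all WT lesions and KO replicate 3 among them. Its log2 fold change was 0.38 (SE 0.21, adjusted p = 0.404 by edgeR). Ern1, which encodes the sensor IRE1 (chr11:106394650-106487852, minus strand), had 59.2, 63.9 and 55.1 CPM in the WT lesions and 81.8, 84.9 and 57.5 CPM in the KO lesions. Here too KO replicate 3 fell within the WT range, and the log2 fold change was 0.33 (SE 0.18, adjusted p = 0.403).

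Atf6, the sensor that becomes a transcription factor (chr1:170704674-170867771, minus strand), had 95.8, 103 and 88.2 CPM in the WT lesions and 91.2, 107 and 86.3 CPM in the KO lesions. The groups lay on top of each other, and the log2 fold change of -0.02 (SE 0.13, adjusted p = 0.962 by edgeR) took the opposite sign under several alternatives, upper quartile scaling among them (0.08). Atf4, the factor translated when PERK or related kinases are active (chr15:80255184-80257541, plus strand), had 116, 115 and 114 CPM in the WT lesions and 112, 87.8 and 87.3 CPM in the KO lesions. Every KO lesion was below the narrow WT range, KO replicate 1 by little. The log2 fold change was -0.27 (SE 0.14, adjusted p = 0.387).

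Ddit3 encodes CHOP, a factor of prolonged ER stress that promotes cell death (chr10:127290774-127296288, plus strand). It had 6.13, 15.1 and 5.89 CPM in the WT lesions and 4.26, 4.19 and 4.06 CPM in the KO lesions, from 287, 671 and 276 counts and 243, 211 and 195 counts. The KO lesions were nearly equal and all below the WT lesions, and WT replicate 2 was far above the other WT lesions. The log2 fold change was -1.12 (SE 0.41, unadjusted p = 0.0355, adjusted p = 0.332 by edgeR), and without WT replicate 2 it was -0.53. The unadjusted p was above 0.05 when WT replicate 2 or any 1 of the KO lesions was left out. The exact two-sided permutation p was 0.1. In WT replicate 2 the summed level of 9 neutrophil markers was 9877 CPM, against 215 and 480 CPM in the other WT lesions and 37.3 to 185 CPM in the KO lesions, and their part in the Ddit3 difference was not tested. Of the 1713 exon bases of Ddit3, 68 overlap Mars on the opposite strand (13885 counts over all libraries), and the strand setting of the counting is not given in the sources used here.

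Levels of different genes were compared only after division by exon length. In the WT lesions the mean level per kilobase was highest for Calr (374 CPM per kb), followed by Hspa5 (201), Hsp90b1 (174), Canx (113), Xbp1 (83.4), Pdia4 (82.3), Atf4 (48.9), Atf6 (10.4), Ern1 (7.27) and Ddit3 (5.28). In the KO lesions Calr had 610, Hsp90b1 278, Hspa5 271, Canx 139, Pdia4 138, Xbp1 108, Atf4 40.6, Atf6 10.3, Ern1 9.14 and Ddit3 2.44 CPM per kb. In the WT lesions, Hspa5 and Hsp90b1, Xbp1 and Pdia4, and Ern1 and Ddit3 were neighbours in this order that differed by less than the larger SD over lesions. In the KO lesions this held for Hsp90b1 and Hspa5, for Canx, Pdia4 and Xbp1 as successive neighbours, and for Atf6 and Ern1.

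The contrast between chaperones and regulators was also read within each lesion. The mean log2 CPM of the 5 chaperones minus that of the 5 regulators was 3.00, 2.80 and 3.47 in the WT lesions and 3.85, 3.88 and 3.54 in the KO lesions. The groups did not overlap, although KO replicate 3 and WT replicate 3 were close. Relative to the WT mean, the chaperones of KO replicate 3 (0.14) were below those of WT replicate 3 (0.23). Of the regulators, Ddit3 (4.06 against 5.89 CPM), Atf4 (87.3 against 114) and Atf6 (86.3 against 88.2) were lower in KO replicate 3. Xbp1 (277 against 261 CPM) and Ern1 (57.5 against 55.1) were higher there. The score without Ddit3, the member with the fewest counts, was not computed. The means were 3.09 ± 0.34 (SD, n = 3) and 3.76 ± 0.19 (SD, n = 3), which is a difference of 0.67 on the log2 scale. No test was made of this score, since the 10 genes were chosen with results of these data known. Relative to the WT mean, the chaperones of KO replicate 3 averaged 0.14 and its regulators -0.31, whereas KO replicate 1 had 0.74 and -0.02 and KO replicate 2 had 0.78 and -0.02.

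The other genes of the pathway, in 5 lists, were read in the same fit, with no gene past an adjusted p of 0.05 in edgeR in any list. At an unadjusted p under 0.05, 14 of their 101 tested genes were higher in KO lesions and 4 were lower, beside 6.55% and 8.16% of all genes. The number higher changed with the scaling and the model, with values given below for ER entry and for the other folding genes.

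The 20 genes of ER entry and N-glycosylation, which move nascent proteins into the ER and attach their sugars, all had log2 fold changes above 0, beside 51.4% of all tested genes. Their values ran from 0.19 to 0.64 with a median of 0.43, beside 0.01 over all genes. At an unadjusted p under 0.05, 7 were higher, beside 6.55% of all genes. That count went to 17 when KO replicate 3 was left out, beside 11.5% of all genes, and to between 0 and 3 when any other lesion was. It was 15 with upper quartile scaling (1945 of all genes), 17 with limma voom (14.3% of all genes) and 1 with a replicate block (613 of all genes). In 9 of the 20 every KO lesion was above every WT lesion, beside 10.7% of all genes. Sec61g, a subunit of the translocation channel, had 58.7, 59.5 and 67.2 CPM in the WT lesions and 78.3, 93.7 and 79.9 CPM in the KO lesions (log2 fold change 0.44, SE 0.13, adjusted p = 0.321). KO replicate 3 was clear of the WT range for this gene. For the chaperones it lay within that range or, for Calr and Pdia4, just above it. Sec61b, another channel subunit, had a log2 fold change of 0.48 (SE 0.16, adjusted p = 0.328), and Sec11a, a catalytic subunit of the signal peptidase, 0.64 (SE 0.21, adjusted p = 0.328).

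Of the 21 other ER folding genes, 18 had log2 fold changes above 0, beside 51.4% of all genes, with a median of 0.32. At an unadjusted p under 0.05 there were 3 higher and 1 lower in KO lesions, beside 6.55% and 8.16% of all genes. Without KO replicate 3 there were 11 higher, beside 11.5%, and with another lesion left out 0 to 2. Upper quartile scaling gave 9 higher, limma voom 14, beside 14.3%, and a replicate block 0. Pdia6, a disulfide isomerase related to Pdia4, had 264, 283 and 346 CPM in the WT lesions and 538, 594 and 345 CPM in the KO lesions (log2 fold change 0.73, SE 0.25, adjusted p = 0.328). KO replicate 3 was just below WT replicate 3, so the groups overlapped. Cnpy2, an ER protein of the saposin-like canopy family, had a log2 fold change of 0.40 (SE 0.13, adjusted p = 0.328) without overlap. Ero1a, the oxidase that recharges the disulfide isomerases and a known target of CHOP, went the other way. It had 95.0, 220 and 93.5 CPM in the WT lesions and 72.7, 67.3 and 61.0 CPM in the KO lesions (log2 fold change -1.02, SE 0.37, adjusted p = 0.328). WT replicate 2 was high as it was for Ddit3, and without it the value was -0.49.

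**Figure D2:**
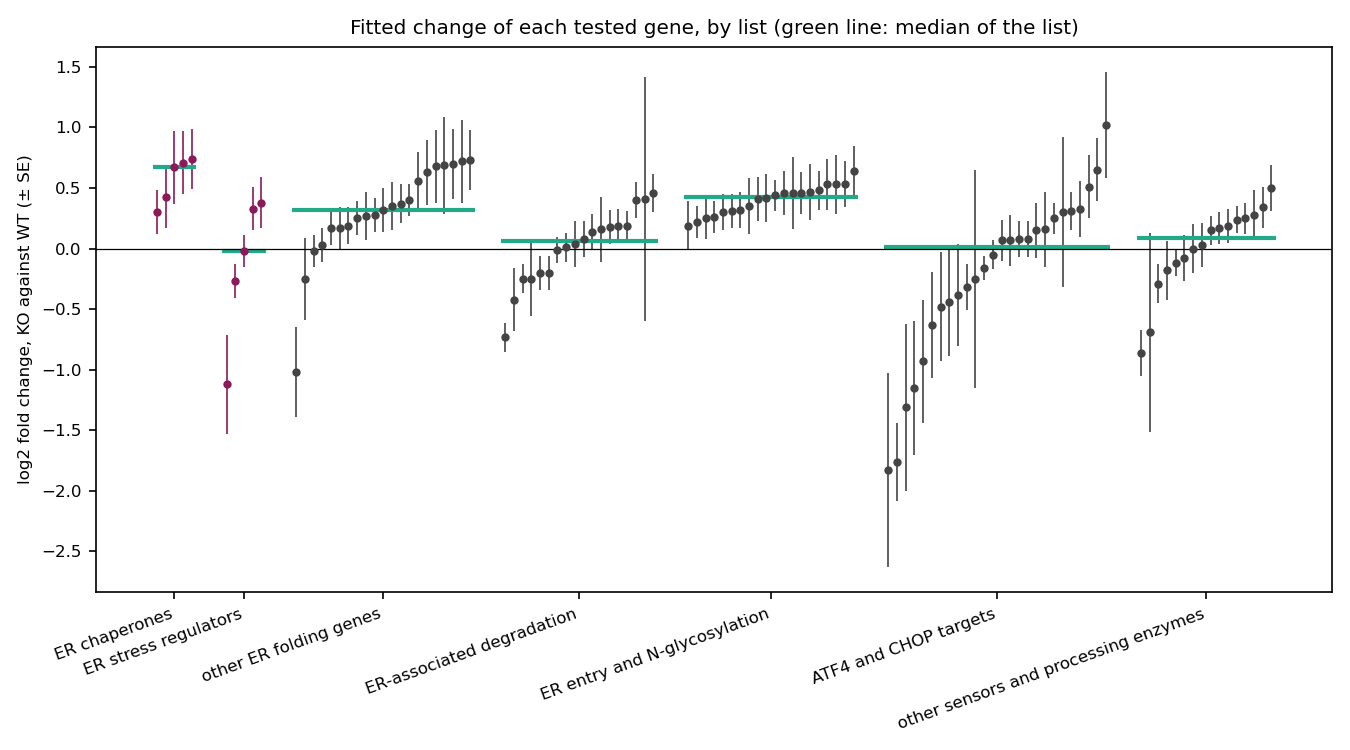
Fitted log2 fold change of each tested gene, KO against WT, with its SE (y axis), grouped along the x axis by list and sorted within it, with the list's median as a green line and the members in purple. The medians were 0.67 for the chaperones and 0.43 for ER entry and N-glycosylation, against -0.02 for the regulators, 0.06 for ER-associated degradation and 0.01 for ATF4 and CHOP targets.

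The 18 genes of ER-associated degradation, which remove misfolded proteins, were divided, with 11 above 0 and a median of 0.06. At an unadjusted p under 0.05, 2 were higher and 1 lower, beside 6.55% and 8.16% of all genes. The count of higher genes was 2 without KO replicate 3 and 0 with any other lesion left out. Erlec1, a lectin of the degradation pathway, had a log2 fold change of 0.46 (SE 0.16, adjusted p = 0.328), and Derl2, a membrane protein of the retrotranslocation complex, 0.40 (SE 0.15, adjusted p = 0.332). Herpud1, a membrane protein of the same complex that is induced in the unfolded protein response, was lower in KO lesions. It had 69.7, 77.6 and 82.1 CPM in the WT lesions and 43.0, 50.3 and 45.1 CPM in the KO lesions, and all 3 KO lesions were alike and far below the WT range. The log2 fold change was -0.73 (SE 0.12, unadjusted p = 0.00104, adjusted p = 0.321 by edgeR). Its unadjusted p was under 0.05 in 13 of the 13 alternatives, and its adjusted p was 0.001 by DESeq2, which called 5.31% of the genes it gave an adjusted p. The Herpud1 promoter held an ERSE-II 52 to 42 bases before its start and 1 TGATGNAA. The ERSE-II is shown in capitals, and the sequence is printed because this gene differed in the direction opposite to the chaperones.
Herpud1, chr8:94386179-94386428, plus strand: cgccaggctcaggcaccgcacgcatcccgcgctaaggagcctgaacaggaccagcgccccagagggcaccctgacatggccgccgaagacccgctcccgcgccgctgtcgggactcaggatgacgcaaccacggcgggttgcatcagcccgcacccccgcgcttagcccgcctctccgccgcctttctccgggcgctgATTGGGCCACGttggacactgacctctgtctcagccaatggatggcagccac

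The 26 tested ATF4 and CHOP targets were evenly divided, with 13 above 0 and a median of 0.01. At an unadjusted p under 0.05, 1 was higher and 1 lower, beside 6.55% and 8.16% of all genes. The remaining gene of this list, Fgf21, had too few counts to be tested. Slc7a11, the cystine transporter that supplies glutathione synthesis, had 231, 374 and 169 CPM in the WT lesions and 78.0, 86.6 and 64.2 CPM in the KO lesions. All WT lesions were far above all KO lesions. The log2 fold change was -1.76 (SE 0.32, unadjusted p = 0.00153, adjusted p = 0.321 by edgeR), and the adjusted p was under 0.05 in 2 of 13 alternatives, DESeq2 and the fit without WT replicate 2 (-1.39). Psat1, an enzyme of serine synthesis, had a log2 fold change of 0.65 (SE 0.26, adjusted p = 0.335), with 31.3, 31.1 and 22.2 CPM in the WT lesions and 33.2, 41.1 and 58.3 CPM in the KO lesions. Stc2, a secreted stanniocalcin, had 104, 80.6 and 97.2 CPM in the WT lesions and 229, 263 and 78.5 CPM in the KO lesions (log2 fold change 1.02, SE 0.44, adjusted p = 0.35). KO replicates 1 and 2 were high and KO replicate 3 was the lowest of the 6 lesions.

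Of the 16 tested genes for other sensors and processing enzymes, 9 were above 0, with a median of 0.09. At an unadjusted p under 0.05, 1 was higher and 1 lower, beside 6.55% and 8.16% of all genes. Ern2, an epithelial relative of Ern1, had too few counts to be tested. Creb3l1, which encodes an ER-bound transcription factor that drives collagen secretion, had 92.5, 98.3 and 101 CPM in the WT lesions and 49.6, 42.9 and 68.5 CPM in the KO lesions (log2 fold change -0.86, SE 0.19, adjusted p = 0.321 by edgeR and 0.0268 by DESeq2). All KO lesions were below the WT range, KO replicate 3 the least. Its relative Creb3l2 had a log2 fold change of 0.50 (SE 0.19, adjusted p = 0.332), and Mbtps1, the protease that makes the first cut in ATF6, 0.24 (SE 0.11, adjusted p = 0.358). Eif2ak3, which encodes PERK and was named after its values were seen, had a log2 fold change of 0.17 (SE 0.13, adjusted p = 0.525).

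**Figure D3:**
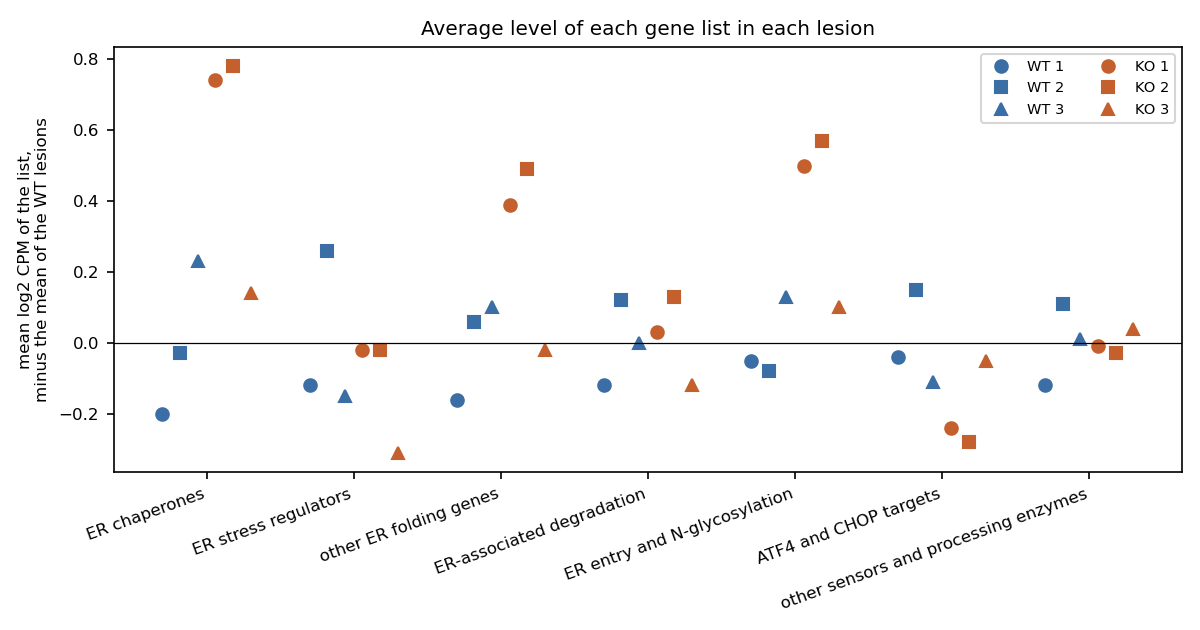
Mean log2 CPM of each list in each lesion, minus the mean of the WT lesions (y axis), for the members and the 5 other lists (x axis), with WT lesions in blue and KO lesions in orange and the symbol giving the replicate number. KO replicates 1 and 2 stood at 0.74 and 0.78 for the chaperones and 0.50 and 0.57 for ER entry and N-glycosylation, while KO replicate 3 was within the WT range for both.

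The lesion-by-lesion averages followed the same lines. For ER entry and N-glycosylation the WT lesions lay at -0.05, -0.08 and 0.13 relative to their mean and the KO lesions at 0.50, 0.57 and 0.10. For the other folding genes the values were -0.16, 0.06 and 0.10 in WT and 0.39, 0.49 and -0.02 in KO lesions. In both lists KO replicates 1 and 2 stood apart from the other 4 lesions. The averages of ER-associated degradation stayed between -0.12 and 0.13 in all 6 lesions. For the ATF4 and CHOP targets they were -0.04, 0.15 and -0.11 in WT and -0.24, -0.28 and -0.05 in KO lesions, so KO replicates 1 and 2 were lowest where their chaperones were highest.

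The genes whose profile over the 6 lesions was most like that of a member were sought among 10340 genes with a mean of at least 10 CPM over the lesions, by the root mean square difference of centred log2 CPM. For Hspa5 they were Gfpt1 (0.0606), which encodes the first enzyme of hexosamine synthesis, Erg28 (0.0639), which encodes an ER scaffold of sterol synthesis, and Magt1 (0.0832), which encodes a subunit of the oligosaccharyltransferase. Gfpt1 had 142, 154 and 203 CPM in the WT lesions and 239, 268 and 160 CPM in the KO lesions. For Ddit3 the nearest was Ero1a (0.0703), followed by the long non-coding RNA Dleu2 (0.0746) and N4bp1 (0.0774), which encodes a regulator of inflammatory signalling. Dleu2 had 9.39, 25.3 and 9.12 CPM in the WT lesions and 7.12, 7.31 and 7.11 CPM in the KO lesions, with the same high WT replicate 2.

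Markers of cell types moved with some of these values. The summed level of 8 endometrial epithelial markers was 1868, 1655 and 2614 CPM in the WT lesions and 3516, 3122 and 1717 CPM in the KO lesions, which is high in the same KO replicates 1 and 2 as the chaperones. Of the 8, 7 had log2 fold changes above 0, beside 51.4% of all genes (median 0.60, 0 at an unadjusted p under 0.05). The gland marker Foxa2 was at 0 to 2.62 CPM, with 0 in KO replicate 3. The summed chaperones divided by the summed epithelial markers, a ratio chosen after the values were seen, was 1.58, 1.94 and 1.5 in the WT lesions and 1.61, 1.83 and 2.13 in the KO lesions, so the groups overlapped. The 8 endometrial stromal markers summed to 5513, 4976 and 4988 CPM across the WT lesions, against 3023, 2248 and 6333 CPM across the KO lesions, and most of this sum came from Col1a1 and Dcn. Pgr, Hoxa10, Hoxa11 and Hand2, named like these after their values were seen, were instead highest in KO replicate 1. Of the 8 stromal markers, 4 had log2 fold changes above 0 (median 0.10), beside 51.4% of all genes. At an unadjusted p under 0.05, 2 were higher and 0 lower, beside 6.55% and 8.16% of all genes. The 6 adipocyte markers summed to 1164, 2774 and 948 CPM across the WT lesions, against 662, 1041 and 4466 CPM across the KO lesions. KO replicate 3, whose chaperones lay near the WT level, thus had the lowest epithelial sum of the KO lesions and, of all 6, the highest adipocyte sum and Col1a1 level. Its Dcn level (2202 CPM) was also the highest, but little above that of WT replicate 1 (2161 CPM). The part of these cell types in the results was not tested.

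**Figure D4:**
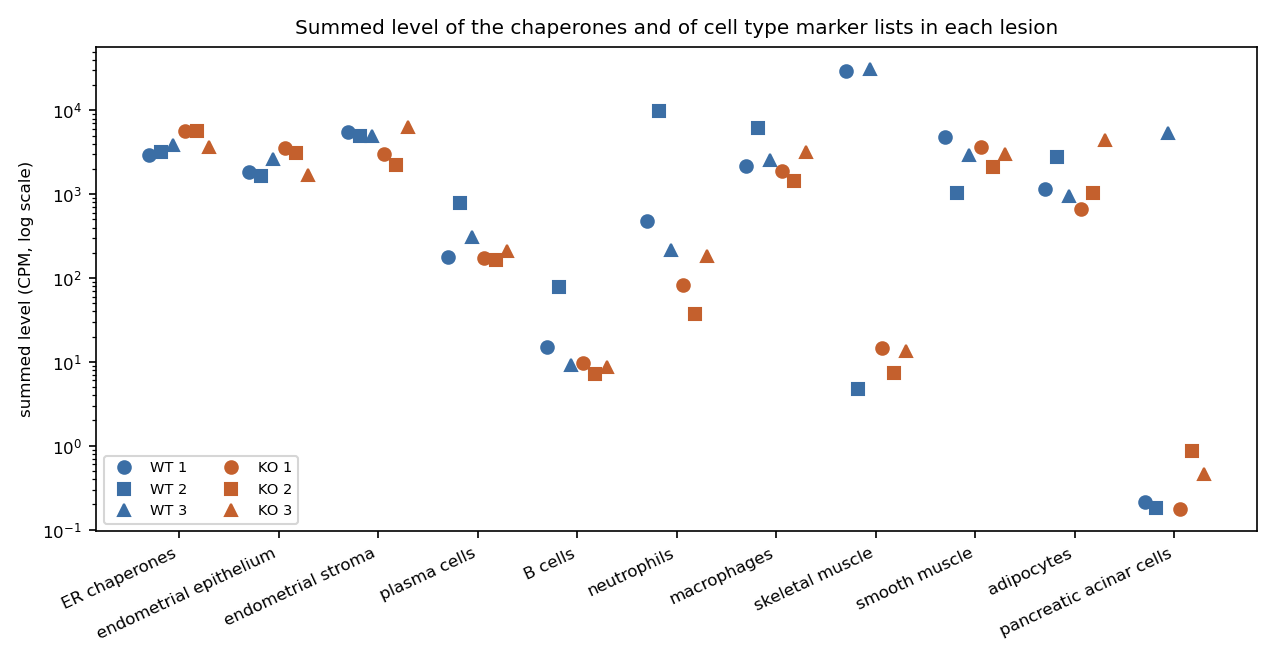
Summed level of the 5 chaperones and of 10 lists of cell type markers in each lesion (y axis, CPM, log scale), with WT lesions in blue, KO lesions in orange and the symbol giving the replicate number. The chaperones ran from 2946 to 3915 CPM among WT lesions and from 3650 to 5716 CPM among KO lesions, with epithelial markers also high in KO replicates 1 and 2.

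Secretory cells other than endometrial epithelium can also carry high chaperone levels, and markers of some of these and of further cell types were read. The 7 plasma cell markers summed to 178, 795 and 307 CPM in the WT lesions and 174, 166 and 211 CPM in the KO lesions, and the 5 B cell markers to 14.9, 77.3 and 9.21 CPM and to 9.81, 7.27 and 8.63 CPM. Both were high in WT replicate 2, whose summed chaperones were 3215 CPM. At an unadjusted p under 0.05, 4 of the 7 plasma cell markers (median log2 fold change -1.26) and 4 of the 5 B cell markers (median -3.47) were lower in KO lesions, beside 8.16% of all genes. In 3 and 4 of them every WT lesion was above every KO lesion, beside 8.74% of all genes. The 9 pancreatic acinar markers summed to 5366 CPM in WT replicate 3 and to at most 0.874 CPM elsewhere, and WT replicate 3 had the highest summed chaperones of the WT lesions (3915 CPM). The 9 skeletal muscle markers summed to 29568 and 31215 CPM in WT replicates 1 and 3 and to 4.73 to 14.7 CPM in the other lesions. All 7 tested skeletal muscle markers and 4 of the 8 tested neutrophil markers were lower in KO lesions at an unadjusted p under 0.05, beside 8.16% of all genes. Macrophage markers (8 genes) summed to 2175, 6204 and 2574 CPM across the WT lesions, against 1870, 1452 and 3183 CPM across the KO lesions, and smooth muscle markers (6 genes) to 4817, 1039 and 2919 CPM and to 3651, 2096 and 3009 CPM. The smooth muscle sum contained Des, which was high in the libraries with skeletal muscle transcripts (2675, 106 and 1357 CPM in the WT lesions) and was named after its values were seen. Of the 6 smooth muscle markers, 5 had log2 fold changes above 0 (median 0.74), 3 were higher at an unadjusted p under 0.05, and in 3 every KO lesion was above every WT lesion, beside 6.55% and 10.7% of all genes. Without WT replicate 3 the log2 fold change was 0.83 for Pdia4 and 0.81 for Calr, and the part of plasma cell, B cell, acinar and muscle transcripts in the results was not tested.

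Promoter elements were also counted in the other lists. Among genes with at least 1 window, an ERSE was found for 4 of 18 other folding genes (Pdia6, Dnajc3, Creld2 and Ero1b), for 2 of 14 genes of ER-associated degradation (Syvn1 and Derl3) and for none of 16 genes of ER entry and N-glycosylation, beside 37 of all 27025 genes. The ERSE-II was found in the windows of Herpud1 and Dnajb11. TGATGNAA was found for 9 of the 22 ATF4 and CHOP targets with a window, Slc7a11 among them, beside 1219 of all 27025 genes. Of all 49 genes with an ERSE or ERSE-II, 30 were tested. Their median log2 fold change was 0.38 with 23 above 0, beside 0.01 and 51.4% of all tested genes. At an unadjusted p under 0.05, 6 were higher and 1 lower, beside 6.55% and 8.16% of all genes. The 18 tested genes among them that are in no list had a median of 0.31 with 13 above 0, beside 51.4% of all genes. At an unadjusted p under 0.05, 3 of the 18 were higher and 0 lower, beside 6.55% and 8.16%. The 3 were Alg12, Lrif1 and Rcl1, named after their values were seen (adjusted p = 0.331, 0.332 and 0.332 by edgeR). Alg12, which encodes a mannosyltransferase of N-glycan assembly, had a log2 fold change of 0.43 (adjusted p = 0.331).

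**Figure D5:**
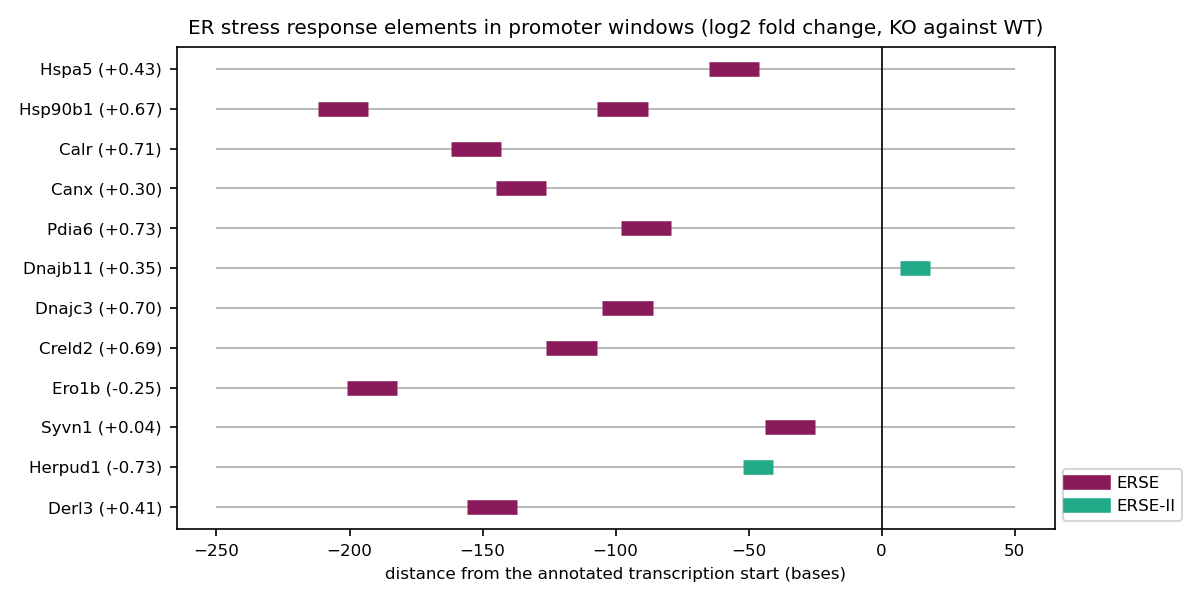
Position of each ERSE (purple) and ERSE-II (green) in the promoter windows of the members and pathway genes that held one, as the distance in bases from the annotated start (x axis, 0 at the start), with the gene's log2 fold change, KO against WT, in brackets on the y axis. The values ran from -0.73 for Herpud1 to 0.73 for Pdia6, and the chaperones' elements lay 212 to 47 bases before the start.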

How the data were processed

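RNA of 6 ectopic lesions (3 WT and 3 Dnmt3a KO, from 3 donor mice per group) was sequenced after stranded mRNA library preparation, and the authors deposited raw counts of reads per gene for 56884 genes. The submitters' processing notes name Trimmomatic, featureCounts and DESeq2 with the build GRCm39, while the methods name GRCm38, and the aligner is not given in the sources used here. Symbols and positions were taken from GENCODE M21 on GRCm38 (51948 identifiers matched without their version and 35 with it), so positions can differ from the gene models counted. Identifiers without a symbol held 3.04% to 3.56% of counts.

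Counts were filtered with filterByExpr (18177 genes left), scaled by TMM and fitted with edgeR 4.0.16 (quasi-likelihood test, genotype as the only term) in R 4.3.3, with Benjamini-Hochberg adjustment over all tested genes and called at an adjusted p under 0.05. A log2 CPM carries a prior count of 2. Single genes were tested over lesions by exact two-sided permutation. Alternatives were other scalings and filters, DESeq2 1.42.0, limma 3.58.1 (voom), a replicate block and leaving out each lesion. Same-numbered lesions were not paired (correlations of their deviations 0.0318, -0.152 and -0.201). The fit was tested on simulated data.

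The members, the 5 pathway lists and the 10 marker lists were chosen with earlier results of these data known, and no list was tested as a set. Named were all members, the 3 genes of smallest p in each pathway list, the 3 genes most like Hspa5 and Ddit3, and Dnmt3a. Other genes are said to be named after their values were seen, or carry an element that was searched. Promoter windows of RefSeq (GRCm38.p6) were matched by symbol for 9 of 10 members.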

Additional observations from a re-analysis of the deposited data

How the results depend on the processing

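No member passed an adjusted p of 0.05 in edgeR or in any of the 13 alternatives. The number of genes that did (1) was 0 with DESeq2 size factors or upper quartile scaling, 1077 by DESeq2, 12 by limma voom, and 0 to 398 with 1 lesion left out. The 1190 genes higher at an unadjusted p became 1945 with upper quartile scaling, 2596 with voom and 499 to 2185 with 1 lesion left out, and the 1484 lower became 2307 by DESeq2, 2882 by voom and 703 to 2366. With the replicate block, although the numbers do not pair the lesions, 0 genes were called, 613 were higher and 787 lower at an unadjusted p, and no member was among them. Atf6 (-0.02) turned to 0.08 with upper quartile scaling, 0.06 with voom and, with 1 lesion left out, ranged from -0.11 to 0.05 (above 0 as 0.04, 0.01 and 0.05 when WT replicate 2, KO replicate 1 or KO replicate 3 was removed). The median of the other sensors was 0.18 with upper quartile scaling. Members higher at an unadjusted p numbered 6 without KO replicate 3 and with voom, and 0 without WT replicate 1, KO replicate 1 or KO replicate 2. The cause of these shifts was not tested. Of the members, Ddit3 had the fewest counts, at least 195 per library, and Fgf21 and Ern2 of the other lists had too few counts to be tested.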
